A study of Mus musculus with 8 samples.

Results

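Complex I, the NADH:ubiquinone oxidoreductase, is the entry point of electrons into the respiratory chain of mitochondria. It takes electrons from NADH, passes them along a flavin and a chain of iron-sulfur clusters to ubiquinone, and pumps protons across the inner membrane. A peripheral arm, which reaches into the matrix, holds the NADH site and the clusters, and a membrane arm holds the proton channels. A small set of core subunits does the chemistry, the accessory subunits surround it, and assembly factors help to build the complex without remaining in it. The genes described here are those whose symbol starts with Nduf, taken by symbol, whatever their values. For each gene the probe set with the highest mean log2(signal + 16) over all 8 arrays was taken, among probe sets with a single gene symbol. That gave 44 of the 18193 genes with such a probe set, namely 34 complex I subunits, 8 assembly factors, and Ndufa4 and Ndufa4l2. Ndufa4 was named after complex I and is now counted with complex IV, cytochrome c oxidase.

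The samples were whole wild-type embryos from crosses of B6D2F1 females with B6D2F1 males, collected as zygotes and cultured in KSOM medium. Arrays 1 to 4 of the first stage held 8-cell embryos of embryonic day 2.5, 66 h after hCG, the hormone that times ovulation, and arrays 1 to 4 of the second held blastocysts of day 4.5, 120 h after it, in which an outer trophectoderm encloses a cavity and the inner cell mass. Whether each array had its own pool of embryos is not stated, so the p-values measure only the spread between these arrays, which may be technical. The series is titled for Tfap2c and the formation of tight junctions and the cavity, and no label singles out the respiratory chain.

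The arrays of a stage correlated at 0.977 to 0.988 over all tested genes and those of different stages at 0.752 to 0.780. All 6 trophectoderm markers were higher in blastocysts, with summed signals of 2997 to 3489 on the 8-cell arrays and 73369 to 82518 on the blastocyst arrays. Of 4 inner cell mass genes 3 were higher and Pou5f1 lower (-0.90), with sums of 9018 to 9767 and 7933 to 10321 in that order. Of 4 primitive endoderm genes 2 were higher, and Gata4 (-0.95) and Gata6 (-0.55) lower. Their sums were 6870.6 to 10304.5 and 10396 to 11334. The 7 cumulus and granulosa cell genes summed to 6585 to 10229 on the 8-cell arrays and 453 to 576 on the blastocyst arrays. Nearly all of the 8-cell sum was Amhr2, at 8118 ± 1598 (SD, n = 4), while Has2, Ptgs2, Ptx3 and Tnfaip6 had mean signals of 9 to 23 at either stage. Foxl2 had mean signals of 174 in 8-cell embryos and 121 in blastocysts (adjusted p = 0.0335, limma). Those of Inha were 39.0 and 55.1 (adjusted p = 0.164, limma). Blood cell genes summed to 243 to 290 and 145 to 219, and stromal genes to 76.2 to 161 and 206 to 224, at the 8-cell and blastocyst stage in that order. The 3′ probe set of Actb exceeded its 5′ probe set by 2.42 ± 0.19 log2 units (SD, n = 4) in 8-cell embryos and by 0.82 ± 0.11 in blastocysts, with an exact two-sided permutation p of 0.0286, the smallest that 70 assignments of the arrays allow, and 0.0571 after adjustment over 4 measures. For Gapdh the values were 2.32 ± 0.26 and 1.36 ± 0.11, with the same p-values. All 8-cell values carry at most 1 decimal and nearly all blastocyst values carry more, so a difference in how the stages were processed cannot be told apart from the stages. The part of these measures in the differences below was not tested. Because whole embryos were measured, fewer cells of a type and less RNA per cell cannot be told apart.

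Complex I messenger RNA was mostly higher in blastocysts. Of the 44 genes, 42 passed the filter on low signals, which asked for a signal above the array's 40th percentile on at least 4 arrays. Of these 42, 29 rose, 2 fell and 11 did not pass an adjusted p of 0.05 (limma, Benjamini-Hochberg over all 13274 genes tested). Among all genes tested, 37.5% were called higher and 34.2% lower, 71.7% in all. The rise was at least 2-fold for 22 of the 42, against 25.4% of all genes, and no member fell 2-fold, against 20.4%. The median of the log2(signal + 16) differences, taken as blastocyst minus 8-cell, was 1.04 for the 42 genes and 0.02 for all genes tested. All 4 blastocyst arrays lay above all 4 8-cell arrays for 30 genes and below them for 2, and the stages overlapped for 10, while 35.3% of all genes lay above and 31.5% below. The subunits carried the rise. Of 33 subunits tested 26 rose, 20 of them at least 2-fold, none fell and 7 did not pass the test, with a median difference of 1.15 and a range of -0.25 to 3.70. The 8 assembly factors divided into 2 that rose, 2 that fell and 4 that did not pass, with a median of -0.11. Scaling the arrays to the bacterial spike-ins in place of the deposited scale moved the median of all genes to 0.46 and that of the members to 1.47. It made 34 members higher and none lower, and called 44.3% of all genes higher and 18.8% lower, so that rises made up 70.2% of calls, and 52.3% with the scale as deposited.

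**Figure D1:**
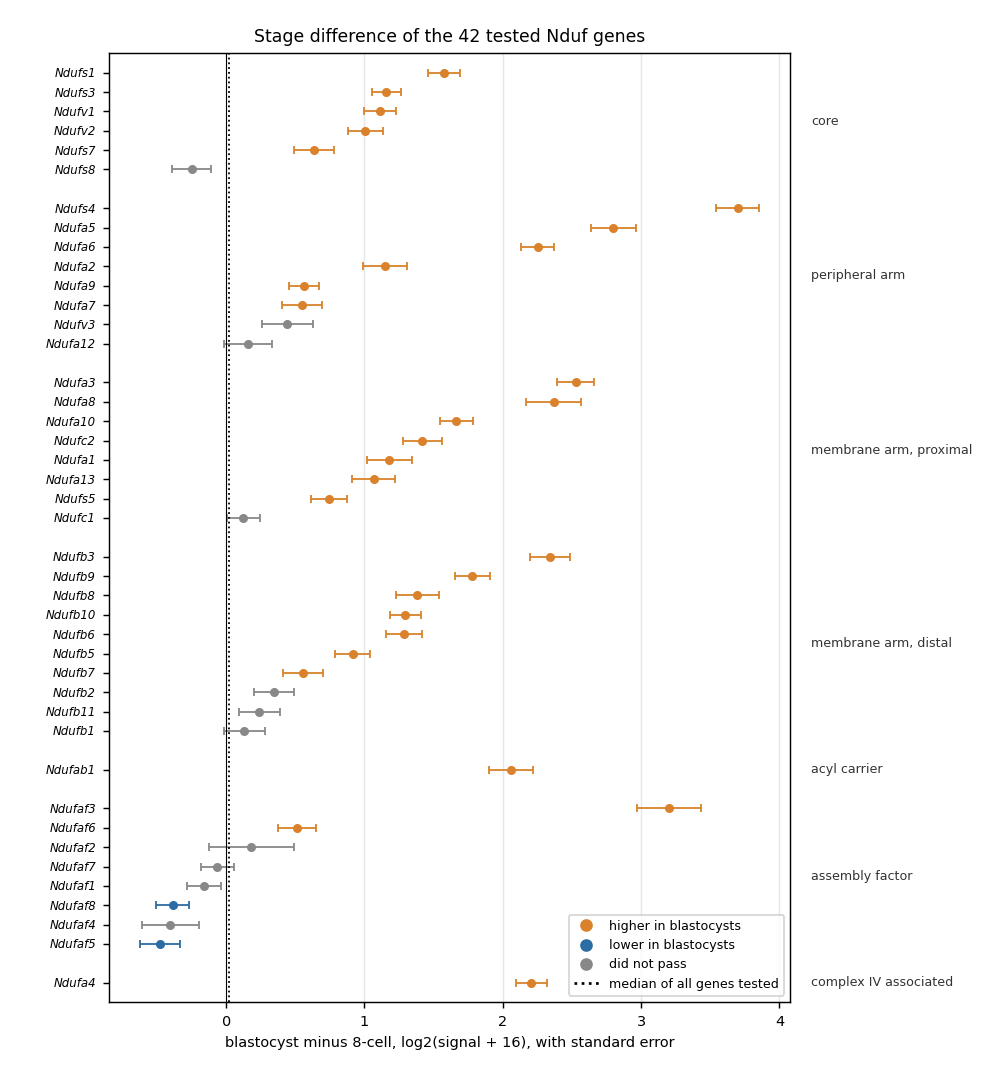
Difference between the stages (blastocyst minus 8-cell, log2(signal + 16) units) with its standard error for each of the 42 tested genes, grouped by role, coloured by the call of the limma test, with a dotted line at the median of all genes tested. The subunits run from -0.25 for Ndufs8 to 3.70 for Ndufs4, and the assembly factors spread around 0 apart from Ndufaf3 at 3.20.

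The core subunits encoded in the nucleus sit in the peripheral arm. Ndufv1 holds the flavin and the NADH site, and Ndufv2 and Ndufs1 carry iron-sulfur clusters. Ndufs3, Ndufs7 and Ndufs8 belong to the part that hands electrons to ubiquinone. Of the 6 tested, 5 rose and Ndufs8 did not pass the test. Ndufs1, the largest core subunit, rose most in this group. Its signal was 2822, 2353, 2579 and 2503 on the 8-cell arrays and 8339, 7896, 7588 and 6836 on the blastocyst arrays. The difference was 1.57 ± 0.12 (SE), a 2.98-fold rise on the log2(signal + 16) scale that all folds here are taken from, with an adjusted p of 1.65e-06 (limma), and the lowest blastocyst array was well above the highest 8-cell array. Ndufs3 rose by 1.16 ± 0.11 (SE), Ndufv1 by 1.11 ± 0.12 and Ndufv2 by 1.01 ± 0.13, with adjusted p-values of 7.35e-06, 1.77e-05 and 5.64e-05 (limma). Each of these 3 was at about double its 8-cell signal, and for none did the stages overlap. Ndufs7, whose cluster is the last before ubiquinone, rose least. It read 10086, 8337, 10688 and 7853 on the 8-cell arrays and 15822, 15068, 12575 and 13738 on the blastocyst arrays, a difference of 0.64 ± 0.14 (SE; adjusted p = 0.00269, limma). The stages did not overlap, although the 8-cell arrays differed among themselves more than they did for Ndufs1.

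Ndufs8, the neighbour of Ndufs7 in the complex, was the only one of the 33 tested Nduf subunits with a negative difference. Its signal was 11383, 10879, 12852 and 9478 on the 8-cell arrays and 10428, 9814, 7889 and 9334 on the blastocyst arrays. The difference of -0.25 ± 0.14 (SE) did not pass the test (adjusted p = 0.135, limma), and the stages overlapped. Ndufs8 had 6 probe sets, and all 6 had a negative difference. Beside the one described, 2 were called lower, at -0.80 and -0.66 (adjusted p = 0.000907 and 0.00262 over 23724 probe sets, limma), and 3 did not pass, at -0.21, -0.21 and -0.19. With the mean over its probe sets Ndufs8 was called lower, at -0.39 (adjusted p = 0.0105, limma), as it was with an intensity trend and robust estimation (adjusted p = 0.0471, limma). Spike-in scaling turned its sign, to 0.19 (adjusted p = 0.489, limma).

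The accessory subunits of the peripheral arm held both the largest rise and values near 0. Of the 8 tested, 6 rose, with a group median of 0.86. Ndufs4 lies at the NADH end of the arm, and its loss causes a Leigh-like brain disease in mice and people. Its signal was 314, 309, 294.8 and 202.8 on the 8-cell arrays and 4092, 3960, 3695 and 3408 on the blastocyst arrays. That is a 13.0-fold rise, 3.70 ± 0.16 (SE) on the log2 scale (adjusted p = 6.72e-08, limma), the largest among the members. With the mean over its 4 probe sets, which disagree, it was 1.29 and no longer the largest. The 4th 8-cell array was low for this gene, and the 8-cell arrays still lay far under every blastocyst array. Ndufa5, near the ubiquinone site, read 1225, 1101, 1002 and 726.8 and then 7566, 7014, 6699 and 6859, in the same order, and rose 6.96-fold (2.80 ± 0.16 SE; adjusted p = 3.75e-07, limma). Ndufa6, an accessory subunit of the LYR family that binds an acyl carrier protein, rose 4.77-fold, from 899 ± 95 (SD, n = 4) to 4333 ± 235 (2.25 ± 0.12 SE; adjusted p = 2.06e-07, limma). These 3 genes each rose more than 4-fold, while the other accessory subunits of the arm moved by little more than 2-fold or less. Ndufa2, which has a thioredoxin-like fold, rose by 1.15 ± 0.16 (SE) and Ndufa9, at the joint of both arms, by 0.56 ± 0.11 (adjusted p = 0.00012 and 0.000948, limma).

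Ndufa7 had the smallest rise called among these accessory subunits, in its brightest probe set, while 3 of its 4 other probe sets fell. It read 2843, 2972, 2853 and 2939 on the 8-cell arrays and 5466, 4301, 3753 and 3694 on the blastocyst arrays, a difference of 0.55 ± 0.14 (SE; adjusted p = 0.00651, limma). The 8-cell arrays were close together, and the 1st blastocyst array stood above the other blastocyst arrays. Ndufv3 and Ndufa12, at the NADH end, did not pass the test. Ndufv3 differed by 0.44 ± 0.18 (SE; adjusted p = 0.0535, limma) and Ndufa12 by 0.16 ± 0.17 (adjusted p = 0.437, limma). For both, the 4th 8-cell array was the lowest of all 8, at 2598 for Ndufv3 and 5295 for Ndufa12, and the stages overlapped. Without that array the difference of Ndufv3 was 0.27 (adjusted p = 0.0969, limma) and that of Ndufa12 -0.00298.

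**Figure D2:**
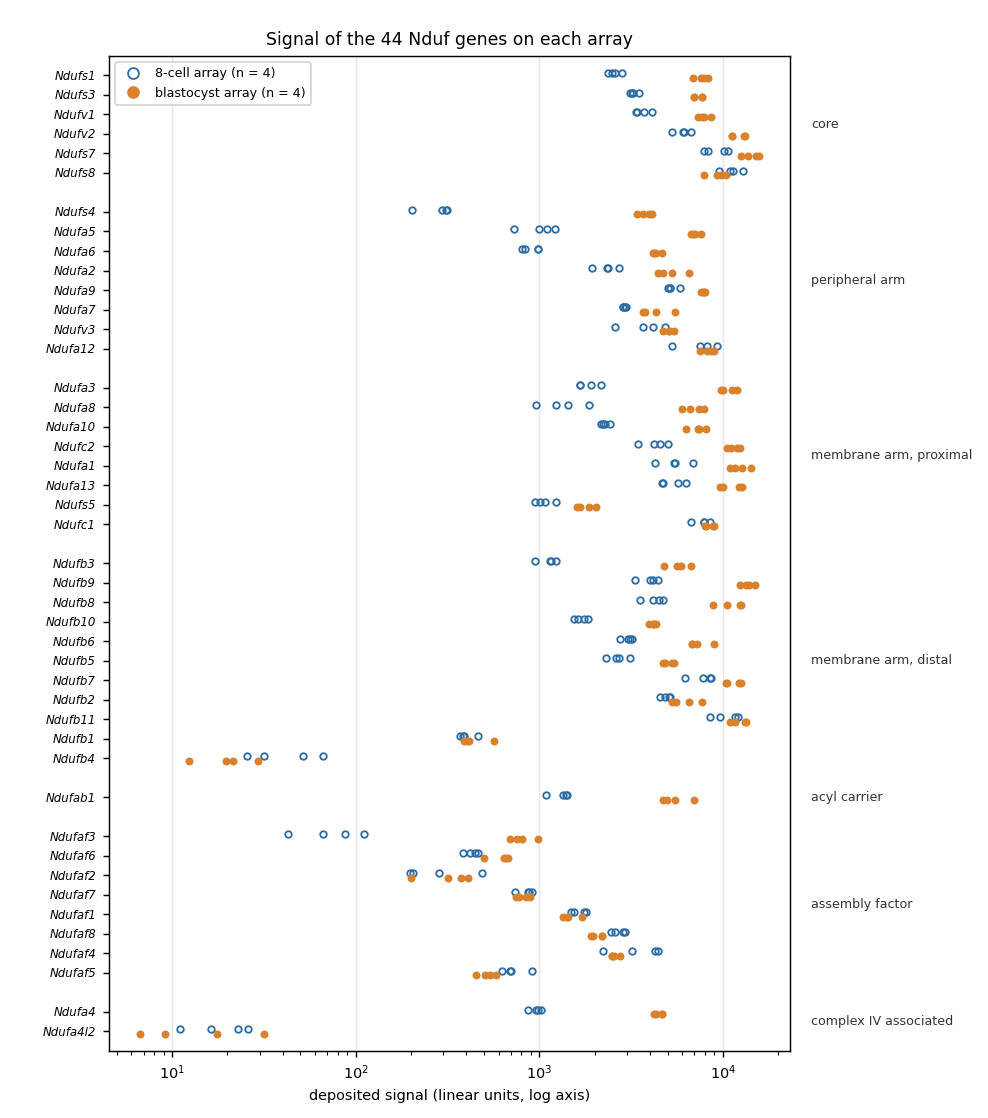
Deposited signal of each of the 44 genes (linear units on a log axis) on the 4 8-cell arrays (open points) and the 4 blastocyst arrays (filled points), with genes grouped by role. For most subunits the filled points lie at higher signals with a gap, widest for Ndufs4, and for Ndufaf5 and Ndufaf8 they lie at lower signals.

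In the part of the membrane arm next to the peripheral arm, 7 of 8 tested subunits rose, with a median of 1.30. Ndufa3, a small membrane subunit, read 2181, 1665, 1907 and 1661 on the 8-cell arrays and 11944, 11182, 9803 and 9966 on the blastocyst arrays. Its 5.76-fold rise was 2.53 ± 0.13 (SE; adjusted p = 2.16e-07, limma), with a wide gap between the stages. Ndufa8, on the intermembrane-space side, rose 5.16-fold (2.37 ± 0.20 SE; adjusted p = 3.77e-06, limma) and Ndufa10, related to nucleoside kinases, 3.17-fold (1.66 ± 0.12 SE; adjusted p = 1.21e-06, limma). Ndufc2, a partner of Ndufc1, rose by 1.42 ± 0.14 (SE), Ndufa1 by 1.18 ± 0.16 and Ndufa13, also known as GRIM-19, by 1.07 ± 0.15. Ndufs5 had the smallest called rise of the group. It read 1229.8, 943, 1012 and 1075 on the 8-cell arrays and 1861, 2026, 1664 and 1614 on the blastocyst arrays, a difference of 0.74 ± 0.13 (SE; adjusted p = 0.000606, limma), and its stages did not overlap. Ndufc1 was the member of the group that did not pass, at 7784 ± 786 and 8455 ± 506 (SD, n = 4 each), a difference of 0.12 ± 0.12 (SE; adjusted p = 0.379, limma). A second, dimmer probe set of Ndufc1 was called higher, by 0.69 (adjusted p = 0.00115, limma).

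In the far part of the membrane arm, 7 of 10 tested subunits rose and 3 did not pass, with a median of 1.10. Ndufb3 rose most. Its signal was 1160, 1237, 1144 and 945 on the 8-cell arrays and 6746, 5935, 5606 and 4781 on the blastocyst arrays, a 5.07-fold rise of 2.34 ± 0.14 (SE; adjusted p = 4.92e-07, limma). Ndufb9, another LYR family subunit, rose 3.44-fold (1.78 ± 0.13 SE) and Ndufb8 2.61-fold (1.38 ± 0.16 SE; adjusted p = 2.71e-05, limma). For Ndufb8 the 8-cell arrays read 3517, 4481, 4730.5 and 4185 and the blastocyst arrays 12519, 12417, 8863 and 10532. The lowest blastocyst array of Ndufb8 was close to double the highest 8-cell array. Ndufb10 rose by 1.30 ± 0.11 (SE), Ndufb6 by 1.28 ± 0.13 and Ndufb5 by 0.91 ± 0.13. Ndufb7, the smallest rise called here, read 8628, 7835, 8474 and 6243 and then 12611, 12183, 10367 and 10493, a difference of 0.56 ± 0.14 (SE; adjusted p = 0.00582, limma), again with no overlap.

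Ndufb2, Ndufb11 and Ndufb1 did not pass the test. For Ndufb2 the 8-cell arrays read 4558, 4839, 5082 and 5147 and the blastocyst arrays 7748, 6579, 5279.5 and 5579. All blastocyst arrays were above all 8-cell arrays, by a narrow margin, and the difference was 0.34 ± 0.14 (SE; adjusted p = 0.0538, limma). Without the 3rd blastocyst array it was 0.42 (adjusted p = 0.0317, limma), and without the 4th 0.40 (adjusted p = 0.0479, limma). Ndufb11 differed by 0.24 ± 0.15 (SE) and Ndufb1 by 0.13 ± 0.15, with overlapping stages. A dimmer probe set of Ndufb2 was called higher, by 0.77 (adjusted p = 0.000622, limma), and another differed by 0.05 without passing. For Ndufb11 a dimmer probe set was called higher, by 0.39 (adjusted p = 0.038, limma), and another differed by 0.12 without passing. Ndufb4 was not tested, since its signal passed the filter on 2 8-cell arrays and no blastocyst array. It read 51.7, 31.5, 25.7 and 66.2 at the 8-cell stage and 21.4, 12.3, 19.6 and 29.3 in blastocysts.

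Ndufab1, the mitochondrial acyl carrier protein, is bound by the LYR subunits in both arms and also serves fatty acid and lipoic acid synthesis. It read 1394, 1339, 1418 and 1081 on the 8-cell arrays and 7005, 5464, 4727 and 4949 on the blastocyst arrays. The rise was 4.17-fold (2.06 ± 0.16 SE; adjusted p = 2.03e-06, limma), with the 1st blastocyst array well above the other 3. Of its dimmer probe sets 2 rose, by 1.69 and 1.42, and 1 differed by -0.32 without passing (adjusted p = 0.297, limma), and the mean over its probe sets was 1.04. Its LYR partners Ndufa6 and Ndufb9 rose by 2.25 and 1.78. Ndufa4, of complex IV, read 1019.8, 984, 957 and 867 and then 4688, 4659.5, 4225 and 4320, and rose 4.62-fold (2.21 ± 0.11 SE; adjusted p = 1.48e-07, limma). Ndufa4l2, its hypoxia-induced relative, was under the filter on all 8 arrays, with signals from 6.7 to 31.6, and was not tested.

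The assembly factors did not move together. Ndufaf3 and Ndufaf4 work as a pair in the assembly of the part of the peripheral arm that meets ubiquinone. Ndufaf3 read 110.8, 87, 66.2 and 42.5 on the 8-cell arrays and 753, 982, 697 and 805 on the blastocyst arrays, a 9.20-fold rise (3.20 ± 0.23 SE; adjusted p = 1.36e-06, limma) second among the members to that of Ndufs4. Its partner Ndufaf4 read 4265, 4417, 3189 and 2235 and then 2555, 2749, 2502 and 2489, a difference of -0.40 ± 0.21 (SE) that did not pass (adjusted p = 0.109, limma). The 4th 8-cell array of Ndufaf4 was the lowest of all 8 arrays, and without it the difference was -0.60 (adjusted p = 0.00557, limma). A dimmer probe set of Ndufaf4 was called lower at -1.10 (adjusted p = 0.000412, limma).

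Ndufaf5 and Ndufaf8 are also partners, and Ndufaf5 modifies the core subunit Ndufs7. They were the only members called lower. Ndufaf5 read 689, 628.5, 913 and 701 on the 8-cell arrays and 538, 579, 505 and 450.3 on the blastocyst arrays, and fell by 0.48 ± 0.15 (SE; adjusted p = 0.0143, limma). Ndufaf8 read 2463, 2934, 2857 and 2595 and then 2206, 1959, 1905 and 2209, and fell by 0.39 ± 0.12 (SE; adjusted p = 0.0136, limma). In both genes the stages did not overlap. Neither fall held under spike-in scaling, with differences of -0.04 for Ndufaf5 and 0.05 for Ndufaf8 (adjusted p = 0.893 and 0.869, limma), and a dimmer probe set of Ndufaf8 gave -0.03 (adjusted p = 0.901, limma). Ndufaf6, needed early in assembly, rose by 0.51 ± 0.13 (SE; adjusted p = 0.00674, limma), from 381.9, 418, 446 and 464 to 644, 658, 679 and 497.5, and after quantile normalization the rise was 0.24 (adjusted p = 0.138, limma). Ndufaf2, which acts late at the NADH end, differed by 0.18 ± 0.30 (SE), Ndufaf7, a methyltransferase, by -0.06 ± 0.12, and Ndufaf1, which works on the membrane arm, by -0.16 ± 0.13. None of these 3 passed, at adjusted p-values of 0.609, 0.657 and 0.275 (limma), and spike-in scaling turned the sign of Ndufaf7, Ndufaf1 and Ndufaf4 to 0.38, 0.28 and 0.04.

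Several probe sets read the same gene for 22 of the 44 members. For 11 of these 22 all other tested probe sets had the call of the brightest one, and for 4 at least 1 was called the opposite way. The dimmer probe set of Ndufb8 fell from 221 to 39.2 in mean signal (-2.11; adjusted p = 4.15e-05, limma), against the rise of 1.38 in the bright one, and the mean over both was -0.37 (adjusted p = 0.0557, limma). For Ndufs4, another probe set rose by 2.39 and 1 fell from 204 to 67.0 (-1.43; adjusted p = 0.000123, limma), while the last differed by 0.50 and did not pass (adjusted p = 0.0507, limma). Ndufa3 had another probe set that rose by 2.39, close to the 2.53 of the brightest, and a dim one that fell from 128 to 76.0 (-0.66; adjusted p = 0.0115, limma). In Ndufa7 the probe sets disagreed at similar brightness. Beside the one that rose by 0.55, another rose by 1.02, and 3 others fell, by 0.73, 0.50 and 1.17, all past the test. The direction of Ndufa7 therefore depended on the probe set, and the mean over its 5 probe sets was -0.17. Averaging the probe sets also brought Ndufa3 down to 1.42 and Ndufb9 to 1.16, both still called higher. Which transcripts each probe set reads was not tested.

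**Figure D3:**
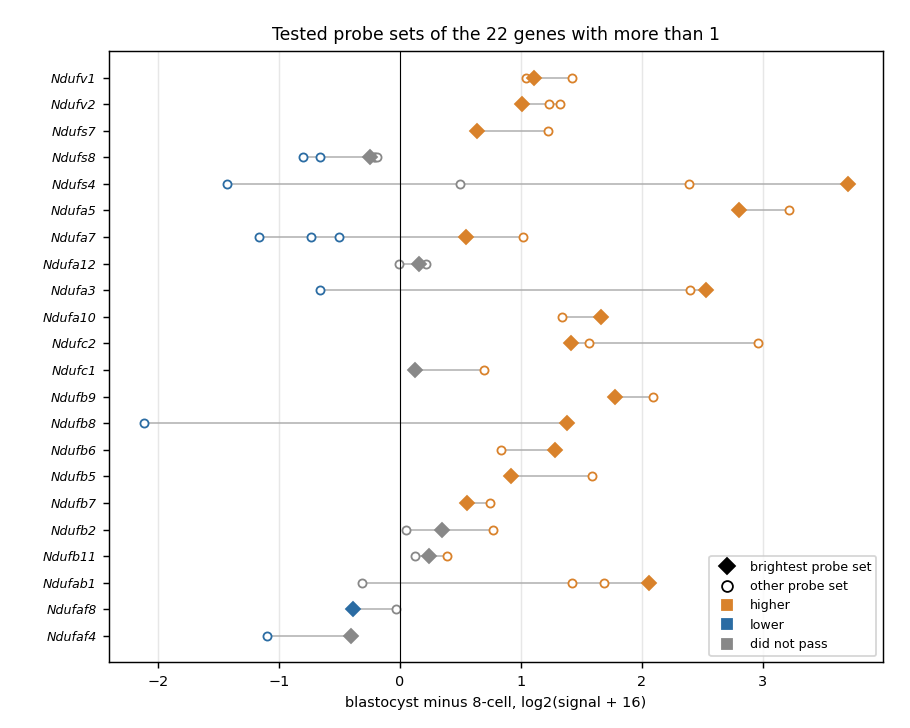
Difference between the stages (blastocyst minus 8-cell, log2(signal + 16) units) for every tested probe set of the 22 members that have several, with the brightest probe set of each gene as a diamond, the others as circles, and colours for the call. Most genes have their points on the same side of 0, and Ndufb8, Ndufs4, Ndufa3 and Ndufa7 have points called on both sides.

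The subunits also varied together among arrays of the same stage. Taking each subunit's deviation from its stage mean, the median over the 33 subunits was 0.14, 0.02, 0.04 and -0.21 log2 units on the 8-cell arrays and 0.13, 0.05, -0.10 and -0.07 on the blastocyst arrays. Over all tested genes the same median stayed between -0.02 and 0.02. The 4th 8-cell array was the lowest of its stage for 23 of the 33 subunits, and the 3rd and 4th blastocyst arrays were the lowest of theirs for 19 and 12. These shifts are small beside the median difference between the stages, and leaving out any single array kept the count of members that rose at 29 or 30. Counts of the lowest array were not made for other genes, so the shifts are not shown to be particular to complex I. In complex IV, the 4th 8-cell array was the lowest of its stage for most tested genes, among them Cox6b1, at 9581. The others were Cox4i1, Cox5a, Cox5b, Cox6a1, Cox6c, Cox7a2 and Cox7c. It was not the lowest for Cox7a2l, at 5285, or Cox8a, at 5143.

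The start regions of these genes were read for motifs of factors known to act on genes of the respiratory chain, namely NRF1, the ETS factor GABP, YY1 and ERR alpha. RefSeq windows from 250 bases before to 50 after the start site (GRCm38.p6) were at hand for 39 of the 44 members. A gene with several start sites had several windows, and a match in any of them counted for the gene. The YY1 core, searched on both strands as AANATGGC, was in 13 of the 39 members (33.3%) and in 6.96% of 27025 genes. The NRF1 core, a run of 10 letters with 1 of them free that is spelled in the matches printed for it, was in 7 (17.9%) against 5.19%, the ETS core CCGGAAG in 6 (15.4%) against 9.93%, and the ERR core AAGGTCA in 3 (7.69%) against 5.38%. A match is a stretch of letters and does not show binding. In 7 of the 39 members (17.9%), against 1.65% of all genes, the YY1 core lay after a start site on the strand of the gene. That place was looked at after the positions were seen. The 27025 genes were not limited to those tested on the arrays. All 7 matches read AAGATGGC, and whether they lie in coding sequence was not looked at. The 7 stretches are shown because their matches share this position, with the motif in capitals, 5′ to 3′ on the strand of the gene.
Ndufs4, chr13:114388045-114388074, minus strand: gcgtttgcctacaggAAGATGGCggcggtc
Ndufa9, chr6:126849097-126849126, minus strand: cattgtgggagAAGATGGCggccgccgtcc
Ndufa3, chr7:3617384-3617413, plus strand: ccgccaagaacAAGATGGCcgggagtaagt
Ndufs7, chr10:80249462-80249491, plus strand: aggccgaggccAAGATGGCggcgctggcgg
Ndufb8, chr19:44555393-44555422, minus strand: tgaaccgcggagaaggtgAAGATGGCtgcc
Ndufc1, chr3:51408915-51408944, minus strand: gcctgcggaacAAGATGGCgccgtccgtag
Ndufaf8, chr11:120098933-120098962, plus strand: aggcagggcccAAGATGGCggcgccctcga

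The 7 genes with this match did not share a call. Ndufs4, Ndufa3, Ndufb8, Ndufs7 and Ndufa9 rose, by 3.70, 2.53, 1.38, 0.64 and 0.56, Ndufc1 differed by 0.12 without passing the test, and Ndufaf8 fell by 0.39. Among subunits with a window, the match was in 5 of the 23 that rose and in 1 of the 7 that did not pass. Over the whole window the YY1 core was in 8 of the 23 (34.8%) and in 3 of the 7 (42.9%). For the ETS core these counts were 3 (13.0%) and 1 (14.3%), and for the ERR core 1 (4.35%) and 1 (14.3%). Whether any motif goes with the call was not tested. The NRF1 core was in 4 of the 23 that rose, none of the 7 that did not pass and 2 of the 7 assembly factors with a window. It is shown for all 7 members that hold it, with the motif or its reverse complement in capitals. Of these, Ndufa5 rose by 2.80, Ndufa8 by 2.37, Ndufa6 by 2.25 and Ndufs5 by 0.74. Ndufaf5 fell by 0.48, and Ndufaf4 differed by -0.40 without passing. Ndufb4, with 3 matches of which the one nearest the start is printed, did not pass the filter.
Ndufa5, chr6:24527697-24527726, minus strand: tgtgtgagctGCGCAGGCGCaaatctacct
Ndufa8, chr2:36049349-36049378, minus strand: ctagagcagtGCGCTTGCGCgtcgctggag
Ndufa6, chr15:82354249-82354278, minus strand: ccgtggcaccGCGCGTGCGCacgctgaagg
Ndufs5, chr4:123718265-123718294, minus strand: gctgcttgctGCGCAGGCGCagacccgctg
Ndufaf5, chr2:140170652-140170681, plus strand: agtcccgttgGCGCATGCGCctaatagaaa
Ndufaf4, chr4:24897960-24897989, plus strand: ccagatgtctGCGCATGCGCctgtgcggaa
Ndufb4, chr16:37654371-37654400, minus strand: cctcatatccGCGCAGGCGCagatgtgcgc

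The genes for these factors did not rise with the subunits. Yy1 fell by 1.15 ± 0.13 (SE; adjusted p = 2.29e-05, limma), Gabpa by 0.92 ± 0.11 and Esrra, which encodes ERR alpha, by 1.13 ± 0.16 (adjusted p = 4.11e-05 and 0.000118, limma). Nrf1 differed by -0.24 ± 0.18 (SE) and did not pass (adjusted p = 0.256, limma). They belong to a list of 15 tested genes for mitochondrial DNA upkeep and transcription, of which 5 rose and 9 fell, with a median of -0.92. The largest rise there was Ppargc1b, a coactivator of these factors, at 3.34 ± 0.16 (SE), and the largest fall Polrmt, the mitochondrial RNA polymerase, at -2.83 ± 0.11 (adjusted p = 1.25e-07 and 5.16e-08, limma). Ppargc1a, the relative of Ppargc1b, had mean signals of 14.4 and 14.3 and was not tested. The core subunits encoded in mitochondrial DNA were represented by a single probe set with the old symbol ND5, which differed by -0.27 ± 0.13 (SE; adjusted p = 0.0947, limma).

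The other lists of the respiratory chain place the complex I values in context. Among assembly factors of complex I with other names, 6 of 10 rose, 3 fell and 1 did not pass, with a median of 0.42. The highest was Acad9, at 1.65 ± 0.12 (SE), and the lowest Ecsit, at -1.55 ± 0.22 (adjusted p = 1.1e-06 and 0.000126, limma), although both proteins work together with Ndufaf1. All 4 subunits of complex II, succinate dehydrogenase, rose, from 1.48 for Sdha to 3.56 for Sdhd, with a median of 2.71. In complex III 6 of 9 subunits rose and none fell, with a median of 0.86. Those that rose ran from 0.66 for Uqcrh to 2.14 for Uqcr11. In complex IV 6 of 10 rose, from 0.48 for Cox7a2l to 1.21 for Cox5b, and none fell, with a median of 0.54. Of 15 ATP synthase subunits 11 rose and Atp5pb fell, by 0.39, with a median of 0.51 and Atp5g2 highest at 2.33. Among 11 genes for the synthesis of coenzyme Q, the ubiquinone that complex I reduces, 5 rose and 3 fell, with a median of 0.14, from -0.72 for Coq8a to 2.56 for Coq2. The medians of the lists were not tested against each other.

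**Figure D4:**
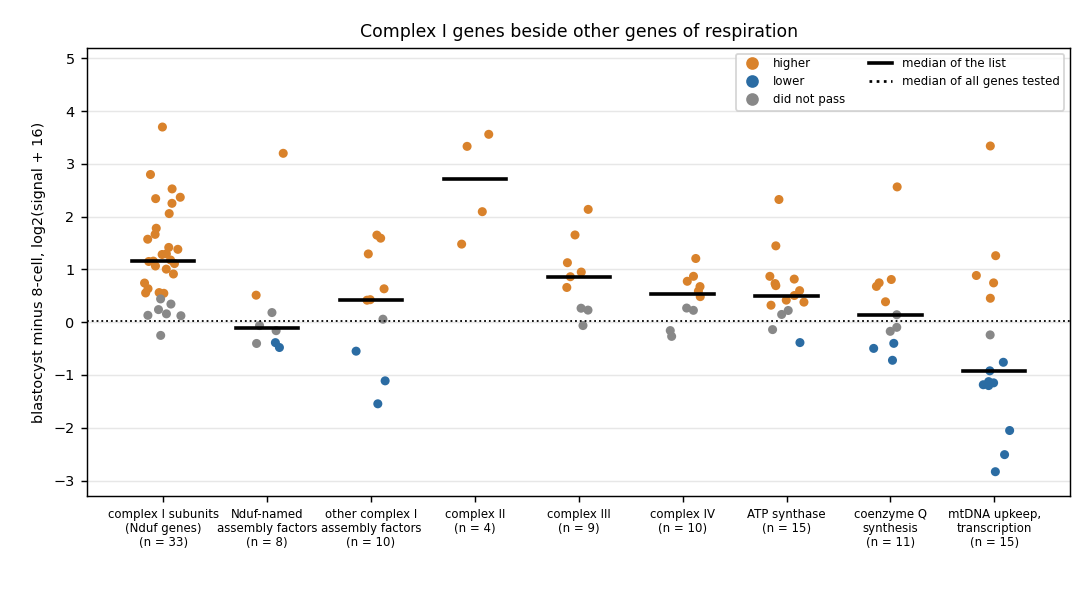
Difference between the stages (blastocyst minus 8-cell, log2(signal + 16) units) of each tested gene in the complex I subunits, the Nduf assembly factors and the other lists of the respiratory chain, coloured by the call, with the median of each list as a bar and that of all genes as a dotted line. The medians run from -0.92 for mitochondrial DNA upkeep and transcription to 2.71 for complex II, with the complex I subunits at 1.15.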

How the data were processed

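RNA was amplified with a small-sample labelling assay before biotin labelling, per the labels' protocols. As deposited, 45101 probe sets have a linear signal intensity on each array. The program behind it was not given in the sources used here. Each deposited array had the same trimmed mean of 500, and that scale was kept. Of the probe sets, 64 were controls, 34945 had 1 gene symbol in the platform annotation, 932 had several and 9160 were not listed. Of those with several, 10 name an Nduf gene and were not used. All 44 members matched RefSeq, with 0 symbols changed. Members were taken by symbol, but the gene family and the lists were themselves chosen with earlier results of these data known.

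Values became log2(signal + 16), which understates the folds of dim genes. The 13274 genes past the filter entered 1 limma fit (lmFit, eBayes) of the stages with no covariates. Folds are 2 to the power of the log2 difference. Array measures were compared by exact permutation. The fit was tested on simulated data. Genes named are the core subunits, the 3 highest and 3 lowest called in each role, all assembly factors, all members not passing, and members with opposed probe sets. Of other lists the highest and lowest called are named, and the factors searched as motifs were added. Alternatives were quantile, median and spike-in scaling, no filter or the 60th percentile, the mean of probe sets, no _x_at, _s_at or _a_at probe sets, an intensity trend with robust estimation, an added 1 or 64, a replicate block, array weights, and leaving out each array. Deviations of same-numbered arrays correlated at -0.035 to -0.024, which shows no pairing by number but cannot exclude one. The number of arrays limits the precision. Tools were R 4.3.3, limma 3.58.1, the data.table package (1.17.8), Python 3.11.15 and matplotlib 3.10.9.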

Additional observations from a re-analysis of the deposited data

Results flagged for a closer look

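Ndufs4 on the 8-cell arrays had 1 array apart from the others. The 4th array read 202.8 against 294.8 to 314 on the other 3, and on the log2(signal + 16) scale its gap to the others was 0.854 of the whole range of the stage, past Dixon's critical value for a group of 4. On the signals themselves the gap was 0.827 of the range, just under that value. It was 1 of 84 groups of arrays looked at, and chance gives about 1 in 20.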

How the results depend on the processing

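Of the 42 member differences, 26 kept their direction and their side of the threshold in every alternative that gave a value, all 20 for 21 of them and 19 for 5 that have only _x_at, _s_at or _a_at probe sets. Leaving out single arrays gave 29 to 30 members higher, 2 to 3 lower, 20 to 22 higher by 2-fold, 0 lower by 2-fold, and a median of 0.97 to 1.09; the third lower gene, without 8-cell replicate 4, was Ndufaf4. Over the same alternatives Ndufa12 ranged from -0.00298, without 8-cell replicate 4, to 0.26. The 12 other alternatives gave 24 to 34 higher and 18 to 26 higher by 2-fold. The count of lower members became 0 under spike-in scaling, 4 with trend and robust estimation, 3 with no filter, with array weights or with the mean of probe sets, and 1 without _x_at, _s_at and _a_at probe sets, where 32 members were tested and Ndufb8 fell 2-fold (1 member, -2.11). With the replicate block 29 members were higher and 1 lower, since Ndufaf8 had an adjusted p of 0.0502 (limma). The median was 1.20 under quantile normalization, 1.47 under spike-in scaling and 1.23 without those probe sets. Signs turned under quantile normalization for Ndufaf2 (-0.077) and Ndufb1 (-0.14), under spike-in scaling for Ndufaf1 (0.28), Ndufaf4 (0.036), Ndufaf7 (0.38), Ndufaf8 (0.052) and Ndufs8 (0.19), and with the mean of probe sets for Ndufa7 (-0.17) and Ndufb8 (-0.37). The probe sets dropped or averaged account for the last changes by construction; the cause of the others was not tested. With 4 arrays a stage, differences near those of Ndufv3, Ndufb2 and Ndufs8 passed under some alternatives only. Ndufb4 and Ndufa4l2 were under the filter in the probe set used and entered a fit only with no filter. All 42 other members kept their call there, so the third lower member with no filter was Ndufb4 or Ndufa4l2.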
